A study of Mus musculus with 24 samples.

Results

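The 10 genes Pecam1, Cdh5, Cldn5, Esam, Kdr, Tek, Tie1, Vwf, Emcn and Erg are established markers of endothelial cells, the layer that lines every blood vessel. They were chosen by symbol for that role, with earlier results of these data known, and all 10 were found among the 54752 gene identifiers of the count table and passed the filter on low counts that left 16463 genes. RNA-Seq was run on the ductus arteriosus (DA), the fetal vessel that joins the pulmonary artery to the aorta, and on the ascending aorta, both taken from C57BL/6 mouse embryos at E18.5. The Prdm6-deficient embryos were Wnt1Cre;PRDM6f/f, with both floxed alleles and Cre, and gave 5 DA and 5 aorta libraries. The control embryos gave 7 DA and 6 aorta libraries and were PRDM6wt/f without Cre, apart from control DA replicate 3, which was PRDM6wt/wt without Cre, and apart from a single Wnt1Cre;PRDM6wt/wt embryo that gave control DA replicate 2 as well as control aorta replicate 3. Prdm6-deficient DA replicates 1 and 2 were each a pool of 2 embryos, and replicate 4 of that group was not analysed here. Many embryos gave both a DA and an aorta library. All Prdm6-deficient libraries carried Cre, beside 1 control library in each vessel. An effect of Cre itself and one of Prdm6 loss therefore cannot be told apart.

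Endothelial cells are held together by junction proteins, sense VEGF and angiopoietins through receptor tyrosine kinases, store von Willebrand factor for clotting, and are kept in their identity by ETS-family transcription factors such as Erg. In the Wnt1-driven Cre line, recombination takes place in the neural crest, which forms the smooth muscle of the DA and the ascending aorta, while the endothelium of these vessels comes from other sources. The libraries are of whole vessel pieces, so a difference in the number of endothelial cells and a difference in the RNA each one holds cannot be told apart.

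Prdm6 itself was the check of the labels. Its level was 84.9 to 128 CPM (counts per 1000000 counts, scaled by the TMM method) in control DA and 58.6 to 78.5 CPM in Prdm6-deficient DA. In the aorta it was 95.6 to 135 CPM in controls and 61.9 to 81.2 CPM in Prdm6-deficient samples, so in neither vessel did the groups overlap. The same held for 5.66% of all genes in the DA and 6.95% in the aorta. The log2 fold change of Prdm6 was -0.57 in the DA and -0.69 in the aorta, so its RNA was lower but not absent. Total counts were 15163974 to 22610547 per library, at which 3 counts stand for 0.133 to 0.198 CPM. The embryos carry animal numbers from 2 separate runs, called the first and second series here. Haemoglobin genes took 12.2% of the counts in Prdm6-deficient DA replicate 1 and 12.4% in control aorta replicate 4, against 1.32% to 6.52% in the other libraries.

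The members fall into 4 roles. The junction genes are Pecam1 (ENSMUSG00000020717.19, chromosome 11, 106654217 to 106750628), Cdh5 (ENSMUSG00000031871.9, chromosome 8, 104101625 to 104144511), Cldn5 (ENSMUSG00000041378.2, chromosome 16, 18776847 to 18778262) and Esam (ENSMUSG00000001946.14, chromosome 9, 37528078 to 37538319). The receptor tyrosine kinases are Kdr (ENSMUSG00000062960.10, chromosome 5, 75932827 to 75978458), Tek (ENSMUSG00000006386.15, chromosome 4, 94739289 to 94874976) and Tie1 (ENSMUSG00000033191.14, chromosome 4, 118471191 to 118490061). The secreted and surface glycoproteins are Vwf (ENSMUSG00000001930.17, chromosome 6, 125546774 to 125686679) and Emcn (ENSMUSG00000054690.17, chromosome 3, 137341067 to 137432185). The transcription factor is Erg (ENSMUSG00000040732.20, chromosome 16, 95359169 to 95586593). These are positions of whole genes on mm10 in the GENCODE annotation.

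Promoters are shown for the members that were called in a comparison below, because ETS factors such as Erg and Ets1 bind the core motif GGAA. Each is the RefSeq window on GRCm38.p6 from 250 bases before to 50 bases after the start, read along the gene's strand, with GGAA, or TTCC on the other strand, in capitals. The windows are chr4:94739039-94739338 for Tek on the plus strand, chr4:118489800-118490099 for Tie1 on the minus strand, chr3:137340828-137341127 for Emcn on the plus strand, chr16:95586544-95586843 for the first start of Erg on the minus strand, and chr16:18776597-18776896 for Cldn5 on the plus strand.
Tek: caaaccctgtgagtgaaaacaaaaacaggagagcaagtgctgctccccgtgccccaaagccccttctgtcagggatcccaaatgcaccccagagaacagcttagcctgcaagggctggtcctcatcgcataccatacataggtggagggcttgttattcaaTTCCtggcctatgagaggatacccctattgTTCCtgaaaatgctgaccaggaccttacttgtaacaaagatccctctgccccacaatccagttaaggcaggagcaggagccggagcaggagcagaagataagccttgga
Tie1: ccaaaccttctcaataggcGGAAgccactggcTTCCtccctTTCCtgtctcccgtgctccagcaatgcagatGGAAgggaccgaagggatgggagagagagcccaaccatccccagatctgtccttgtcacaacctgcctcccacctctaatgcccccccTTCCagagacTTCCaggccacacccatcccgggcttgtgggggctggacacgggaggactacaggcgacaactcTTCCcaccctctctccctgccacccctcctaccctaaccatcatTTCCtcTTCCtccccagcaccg
Emcn: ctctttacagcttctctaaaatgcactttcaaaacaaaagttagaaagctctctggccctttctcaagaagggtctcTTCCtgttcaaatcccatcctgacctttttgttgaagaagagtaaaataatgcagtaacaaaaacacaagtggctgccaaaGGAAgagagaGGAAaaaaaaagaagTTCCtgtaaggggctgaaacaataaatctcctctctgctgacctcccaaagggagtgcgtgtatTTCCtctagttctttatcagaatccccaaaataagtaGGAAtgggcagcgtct
Erg: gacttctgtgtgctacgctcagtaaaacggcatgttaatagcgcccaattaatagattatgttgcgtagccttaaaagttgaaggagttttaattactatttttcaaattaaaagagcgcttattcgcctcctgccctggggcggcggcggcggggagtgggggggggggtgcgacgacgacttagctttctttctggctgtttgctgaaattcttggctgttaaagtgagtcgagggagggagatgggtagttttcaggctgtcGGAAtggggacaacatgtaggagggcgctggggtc
Cldn5: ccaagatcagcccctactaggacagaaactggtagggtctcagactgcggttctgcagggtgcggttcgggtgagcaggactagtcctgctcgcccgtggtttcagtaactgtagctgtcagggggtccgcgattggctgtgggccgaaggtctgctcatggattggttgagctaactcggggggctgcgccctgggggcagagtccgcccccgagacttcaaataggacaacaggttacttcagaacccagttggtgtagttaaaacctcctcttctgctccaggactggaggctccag
The core motif was found 2 times in Tek, 9 times in Tie1, 6 times in Emcn, 1 time in this Erg window and 0 times in Cldn5. It is a common word, present in 96.0% of the 32851 promoter windows of the table with a median of 3 per window. The longer forms AGGAAG or CGGAAG, in either strand, were found 3 times in Tie1, 2 times in Emcn and in none of the other windows printed, and 46.5% of all windows hold at least 1. The RefSeq start of Tie1 lies 212 bases inside the whole-gene position given above, so its window reaches further into the gene. For the other windows printed this distance is 0 to 11 bases. A match describes the letters of the window and is no measured binding site.

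In control vessels the endothelial genes were measured at very different levels. Per kilobase of exon, Pecam1, an adhesion molecule of endothelial junctions that platelets and leukocytes also carry, had the highest level in control DA at 51.7 ± 8.52 CPM per kb (SD, n = 7). It was followed by Cldn5, a tight junction protein, at 45.4 ± 21.9 CPM per kb, a difference smaller than the spread of Cldn5. Tie1 stood at 36.5 ± 3.92, Esam at 23.5 ± 3.88, Tek at 23.3 ± 3.92, Cdh5 at 21.4 ± 1.15, Erg at 20.6 ± 6.51 and Vwf at 15.0 ± 3.19 CPM per kb. Esam, Tek, Cdh5 and Erg are neighbours in this order, and each pair of neighbours differs by less than the larger of their SDs. Emcn stood at 6.66 ± 1.22 CPM per kb. Kdr, the main VEGF receptor of endothelial cells, was the lowest member at 1.62 ± 0.986 CPM per kb in control DA and 1.56 ± 0.375 CPM per kb in control aorta. In control aorta Cldn5 came first at 54.8 ± 6.87 CPM per kb and Pecam1 next at 42.9 ± 7.79 CPM per kb (n = 6). All 10 members were far above the 3-count floor in every library, with the lowest value, 4.90 CPM, for Kdr in control DA replicate 6.

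**Figure D1:**
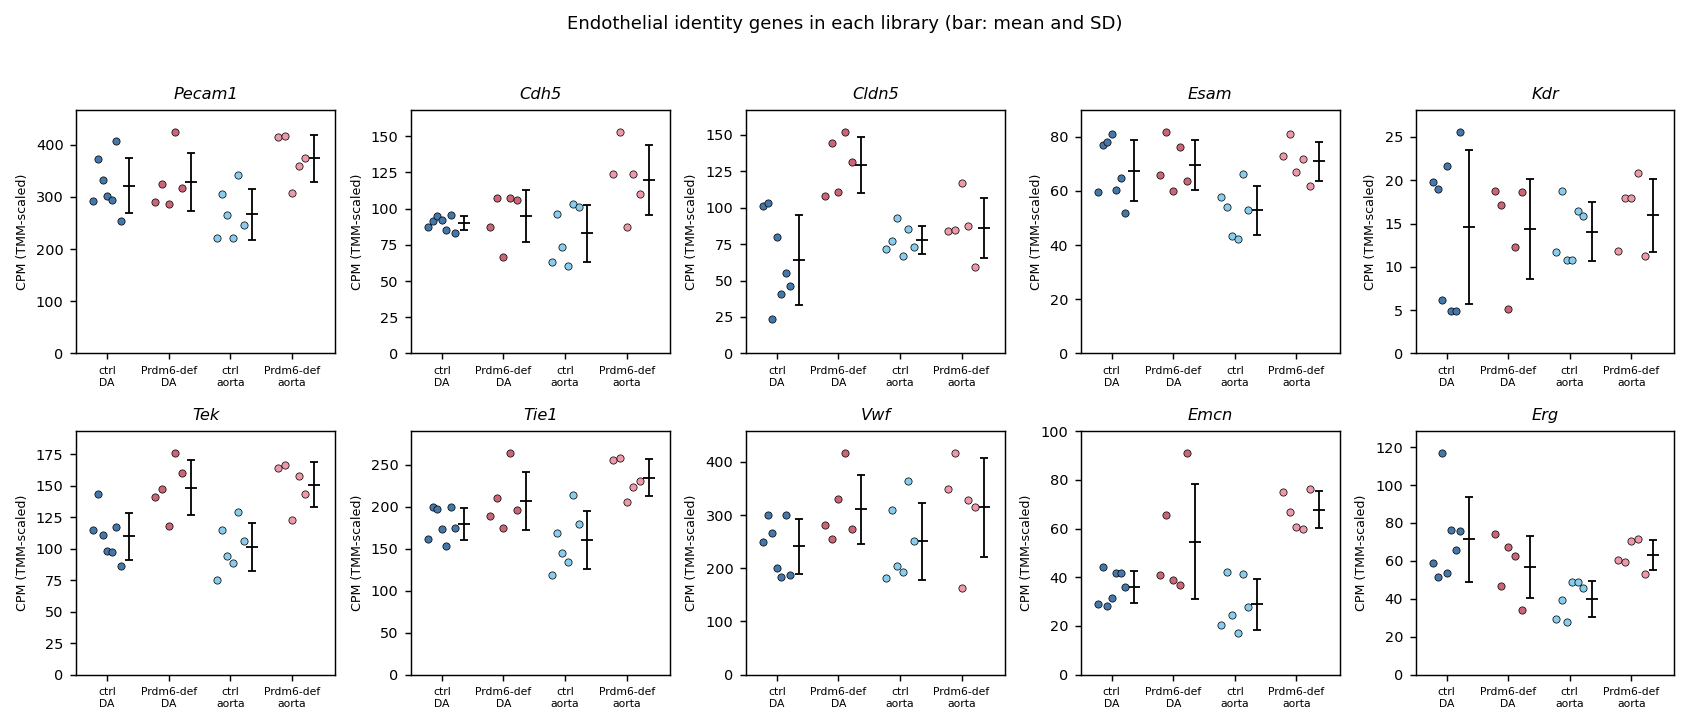
Level of each of the 10 endothelial identity genes in CPM (TMM-scaled, linear axis from 0), with 1 point per library in control DA (n = 7), Prdm6-deficient DA (n = 5), control aorta (n = 6) and Prdm6-deficient aorta (n = 5), and a bar for the mean and SD of each group. Cldn5 separates the DA groups, while Emcn and Erg separate the aorta groups without overlap.

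In the DA, the comparison asked how loss of Prdm6 in neural crest derivatives alters gene expression before the vessel closes. Only Cldn5 passed the test among the 10 members, and it was higher in Prdm6-deficient DA. A gene was called when its edgeR quasi-likelihood adjusted p was below 0.01 and its log2 fold change was beyond 0.5 either way. By that rule 5.43% of all tested genes were called in the DA, 2.61% higher and 2.82% lower, beside 1 of 10 members higher and 0 lower. By sign alone 8 of 10 members were higher, and their median was 0.14 on the log2 scale, beside 51.5% of all genes and a median of 0.01. At an unadjusted p under 0.05 there were 3 members, beside 23.7% of all genes.

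Cldn5 seals the gaps between endothelial cells as a tight junction strand protein. Its level was 101, 103, 23.6, 79.6, 40.6, 55.3 and 46.0 CPM in control DA replicates 1 to 7. In Prdm6-deficient DA it was 108, 144, 111, 152 and 131 CPM in replicates 1, 2, 5, 6 and 7. Every Prdm6-deficient value lay above every control value, as was the case in 1 direction or the other for 5.66% of all genes, although the highest controls came close to the lowest Prdm6-deficient sample. The difference of 1.01 on the log2 scale (SE 0.23, edgeR adjusted p = 0.00408) is a fold of 2.01. The size was alike within both series of animals, at 0.96 in the first and 1.09 in the second, but in neither was the adjusted p below 0.01. The call was lost when control DA replicate 5, control DA replicate 7, Prdm6-deficient DA replicate 2 or Prdm6-deficient DA replicate 6 was left out, with log2 fold changes of 0.86 to 1.16 over all single libraries left out.

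Control DA varied most in Cldn5 and Kdr. Replicates 3, 5 and 6 had the lowest Kdr levels of that group, at 6.17, 4.95 and 4.90 CPM, while the other replicates lay between 19.0 and 25.6 CPM. These same 3 libraries had the highest summed level of 8 smooth muscle markers, at 22499, 24400 and 21163 CPM against 13915 to 18126 CPM in the others. They also had the lowest summed level of 8 macrophage and leukocyte markers, at 100, 68.2 and 56.5 CPM against 117 to 255 CPM. The part of these differences in the Cldn5 and Kdr results was not tested. Kdr had a log2 fold change of -0.02 in the DA with a 95% interval of -0.77 to 0.73, the widest of the 10 members.

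Smooth muscle markers moved with the comparison itself. Their summed level was 13915 to 24400 CPM in control DA and 10062 to 12231 CPM in Prdm6-deficient DA, with all 8 lower by sign and 7 called lower, among them Myh11 and Tagln. The sum of 5 pericyte markers was 5954 to 11579 CPM in control DA and 3781 to 7692 CPM in Prdm6-deficient DA, with all 5 lower by sign and Kcnj8 and Abcc9 called lower. All 7 erythroid markers were higher by sign in Prdm6-deficient DA (median 0.78, 0 called). The part of these cells in the member values was not tested. The median of all genes stood at 0.01 on the log2 scale after TMM scaling.

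Tek, the angiopoietin receptor known as Tie2, came nearest to the threshold among the other members in the DA. It measured 115, 143, 111, 98.2, 97.2, 117 and 86.4 CPM in control DA and 141, 147, 118, 176 and 160 CPM in Prdm6-deficient DA. The groups overlapped only through control replicate 2, the sample with Cre, and Prdm6-deficient replicates 1 and 5. The log2 fold change was 0.44 (SE 0.12, adjusted p = 0.0190), outside both limits of the call rule. Without the control samples with Cre it was 0.51 with an adjusted p of 0.00544 and passed. This was the only 1 of 14 alternatives to call Tek, beside 2 of 23 fits with a single library left out. Within the first series the log2 fold change was 0.19, and without the pooled samples it was 0.46 (edgeR adjusted p = 0.0577).

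Emcn, the sialomucin endomucin of the luminal surface, had estimates in the DA that differed by series of animals. It measured 28.3 to 44.0 CPM in control DA, with a median of 35.9 CPM. In Prdm6-deficient DA it measured 41.0, 38.7 and 36.8 CPM in replicates 1, 5 and 6 of the first series and 65.7 and 91.1 CPM in replicates 2 and 7 of the second. The log2 fold change was 0.60 over all samples (SE 0.22, adjusted p = 0.0690), 0.10 in the first series alone and 1.12 in the second alone, where the adjusted p was 0.0149. The difference between the series was not tested.

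The remaining members gave no call in the DA. Pecam1 measured 254 to 408 CPM in control DA and 286 to 425 CPM in Prdm6-deficient DA, with a log2 fold change of 0.03 and a 95% interval of -0.22 to 0.28. Cdh5, the VE-cadherin of adherens junctions, was the steadiest member in control DA, between 83.2 and 95.5 CPM, and measured 66.4 to 107 CPM in Prdm6-deficient DA (log2 fold change 0.07, interval -0.21 to 0.36). Esam, an adhesion molecule of the same junctions, had a log2 fold change of 0.04 with an interval of -0.20 to 0.29. The upper ends of these 3 intervals lie below the lower end of that of Cldn5, 0.52, while those of Tek (0.69), Kdr (0.73), Vwf (0.76) and Emcn (1.04) lie above it. Differences between the genes were not tested. Tie1, the orphan partner of Tek, stood at 0.20 (adjusted p = 0.321) and Vwf at 0.37 (adjusted p = 0.251). Erg had the lowest estimate of the 10, -0.33 (SE 0.19, adjusted p = 0.337), with 51.5 to 117 CPM in control DA and 34.1 to 74.0 CPM in Prdm6-deficient DA.

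In the ascending aorta the same loss of Prdm6 was compared between 5 Prdm6-deficient and 6 control samples. Emcn, Tek and Tie1 were called higher, and all 10 members had a positive log2 fold change. The share of all tested genes called was 2.45% in the aorta, 1.63% higher and 0.826% lower, beside 3 of 10 members called higher and 0 lower. The median log2 fold change of the members was 0.51, beside a median of 0.00 over all genes with 49.9% of them above 0. At an unadjusted p under 0.05 there were 7 of 10 members, beside 14.0% of all genes.

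Emcn showed the largest change. It measured 20.5, 42.1, 24.4, 17.0, 41.2 and 27.6 CPM in control aorta replicates 1 to 6 and 74.9, 66.8, 60.6, 60.0 and 76.2 CPM in Prdm6-deficient aorta replicates 1 to 5. The groups did not overlap, as was the case in either direction for 6.95% of all genes. The log2 fold change was 1.23 (SE 0.22, adjusted p = 6.9e-04), a fold of 2.35. It was 1.31 within the first series, which holds 1 control aorta, and 1.29 within the second, where it passed the test. The call held with each single library left out, at 1.12 to 1.37, and at 1.11 without the 2 libraries richest in haemoglobin.

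Both angiopoietin-pathway kinases were higher. Tek measured 75.3, 115, 94.1, 88.8, 129 and 106 CPM in control aorta and 164, 166, 123, 158 and 143 CPM in Prdm6-deficient aorta. Tie1 measured 119, 168, 145, 134, 214 and 179 CPM in control aorta and 256, 258, 206, 223 and 230 CPM in Prdm6-deficient aorta. For each gene the overlap came from control replicate 5 and Prdm6-deficient replicate 3 alone. The log2 fold changes were 0.57 for Tek (SE 0.13, adjusted p = 0.00610) and 0.55 for Tie1 (SE 0.12, adjusted p = 0.00503). Both lie just past the limit, and both calls were lost without Prdm6-deficient aorta replicates 1, 2 or 5 or control aorta replicates 1, 3 or 4, and that of Tek also without Prdm6-deficient aorta replicate 4 or control aorta replicate 6. Over all single libraries left out their log2 fold changes stayed between 0.48 and 0.65. Without the 2 libraries richest in haemoglobin they were 0.53 and 0.50, with adjusted p-values of 0.0232 and 0.0198.

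The adherens and adhesion genes of the junction had estimates of like size that missed the call. Pecam1 measured 221 to 343 CPM in control aorta and 308 to 416 CPM in Prdm6-deficient aorta (log2 fold change 0.49, SE 0.13, adjusted p = 0.0195). Cdh5 measured 60.3 to 103 CPM in control aorta and 87.1 to 153 CPM in Prdm6-deficient aorta (0.53, SE 0.14, adjusted p = 0.0263). DESeq2 called Cdh5 (adjusted p = 0.00689), the only 1 of 14 alternatives to do so, beside 1 of 23 fits with a single library left out. Esam measured 42.3 to 66.4 CPM and 61.9 to 81.1 CPM (0.43, SE 0.12, adjusted p = 0.0387). Cldn5, called in the DA, measured 66.5 to 92.6 CPM in control aorta and 59.1 to 117 CPM in Prdm6-deficient aorta, with a log2 fold change of 0.15 and a 95% interval of -0.35 to 0.66.

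Erg measured 29.2, 39.2, 27.8, 48.9, 49.0 and 45.9 CPM in control aorta and 60.2, 59.5, 70.7, 71.7 and 53.1 CPM in Prdm6-deficient aorta. Its groups did not overlap, yet the adjusted p was 0.0559 at a log2 fold change of 0.66 (SE 0.20) in the fit that shares its spread with the DA samples. With only the aorta samples in the fit it was 0.65 with an adjusted p of 0.00623. That was the only 1 of 14 alternatives to call Erg, and 0 of 23 fits with a single library left out did so. The edgeR adjusted p was 0.119 with the series as a covariate and 0.226 within the second series (log2 fold change 0.44). Vwf, at 182 to 364 CPM in control aorta and 162 to 417 CPM in Prdm6-deficient aorta, had a log2 fold change of 0.33 and Kdr one of 0.18, neither called.

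Blood cell markers differed between the aorta groups in the opposite direction. The summed level of 8 macrophage and leukocyte markers was 137 to 256 CPM in control aorta and 80.2 to 113 CPM in Prdm6-deficient aorta, with all 8 lower by sign and 0 called. The sum of 7 platelet markers was 42.6 to 85.4 CPM in controls and 37.1 to 57.2 CPM in Prdm6-deficient aorta, and Pf4, a platelet chemokine that macrophages can also hold, was called lower (log2 fold change -1.16, adjusted p = 0.00946). Leukocytes and platelets express Pecam1, and platelets and their precursors Vwf, and the part of these cells in the values of these genes was not tested. Smooth muscle markers summed to 8785 to 12445 CPM in control aorta and 9668 to 11377 CPM in Prdm6-deficient aorta, with Mylk called higher and Synpo2 called lower. The sum of 5 pericyte markers was 1696 to 3101 CPM in control aorta and 5299 to 6097 CPM in Prdm6-deficient aorta, most of it Rgs5, which averaged 1623 CPM in control and 5290 CPM in Prdm6-deficient aorta (log2 fold change 1.70, adjusted p = 1.4e-06). Abcc9, another gene of that list, was called lower at -0.68. The 7 erythroid markers were all lower by sign in Prdm6-deficient aorta (median -0.84, 0 called), and 5 mesothelial markers summed to 37.0 to 122 CPM in control and 10.9 to 41.6 CPM in Prdm6-deficient aorta, with 4 lower by sign (median -1.94) and 0 called. The part of these cells in the member values was not tested.

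**Figure D2:**
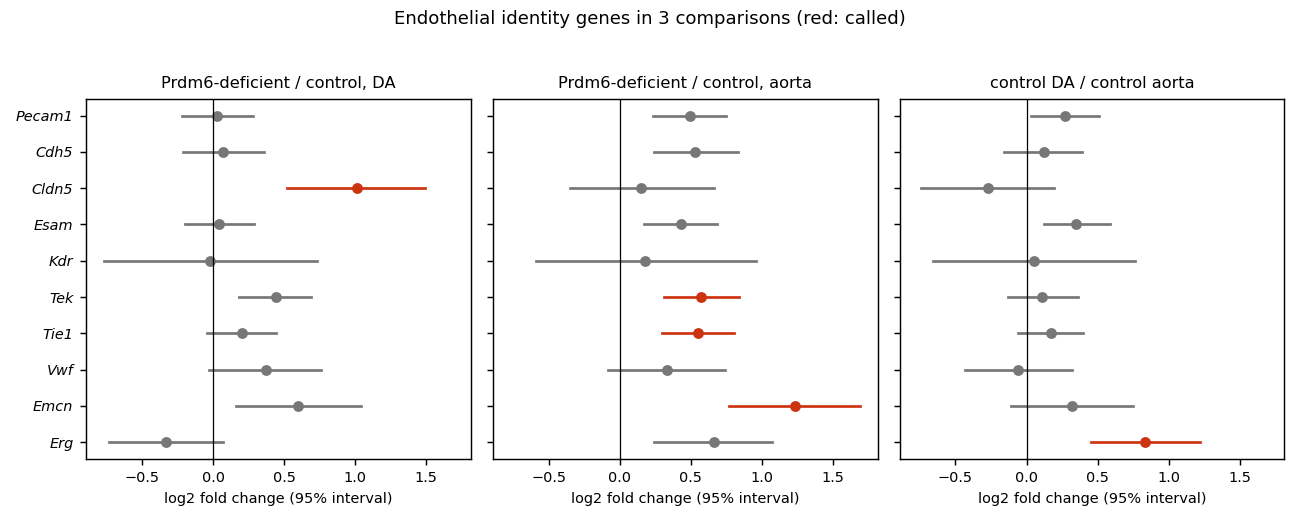
Log2 fold change (x axis) with its 95% interval for each of the 10 genes, from edgeR, in Prdm6-deficient against control DA, Prdm6-deficient against control aorta, and control DA against control aorta. Red marks the called genes, Cldn5 at 1.01 in the DA, Tek at 0.57, Tie1 at 0.55 and Emcn at 1.23 in the aorta, and Erg at 0.83 between the control vessels.

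The control vessels were then compared with each other. Erg was called higher in the DA and was the only member called, beside 5.36% of all genes called, 3.16% higher in the DA and 2.19% lower. The groups of control DA and control aorta samples did not overlap for Erg, as for 5.36% of all genes. By sign 8 of 10 members were higher in the DA, beside 49.3% of all genes, and 3 had an unadjusted p under 0.05, beside 21.6%. It measured 58.8, 51.5, 117, 53.8, 76.5, 65.7 and 75.7 CPM in control DA, above the highest control aorta value of 49.0 CPM in every replicate. The log2 fold change was 0.83 (SE 0.19, adjusted p = 0.00264), or 1.78-fold. Control DA replicate 3 stood apart at 117 CPM, and within the second series, which does not hold it, the log2 fold change was 0.64 (adjusted p = 0.00739). In the 6 control animals that gave both vessels, with the animal as a block, it was 0.69 (adjusted p = 0.00189). Of the single libraries left out, only control aorta replicate 3 ended the call, and it was also lost within the first series, where the log2 fold change was 1.60 (adjusted p = 0.0860). Esam followed at 0.35 (adjusted p = 0.0418) and Pecam1 at 0.27 (adjusted p = 0.162), and the other 7 members lay between -0.27 and 0.32.

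Between Prdm6-deficient DA and Prdm6-deficient aorta edgeR called 0 of the 10 members, beside 0.115% of all genes called lower and 0.152% higher in the DA, 0.267% in all. At an unadjusted p under 0.05 there were 2 members, Cdh5 at -0.34 and Cldn5 at 0.58, beside 10% of all genes, and DESeq2 called 0 as well. The groups overlapped for all 10 members, while 3.52% of all genes did not overlap. By sign 1 member was higher in the DA, beside 49.9% of all genes. The Erg value, which shares its samples with the comparisons above, was -0.15 with a 95% interval of -0.58 to 0.28.

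Whether the effect of Prdm6 loss differed between the vessels was tested by the interaction, the log2 fold change in the DA minus that in the aorta. edgeR called 0 of 10 members, beside 2.58% of all genes, 1.66% lower and 0.917% higher. By sign 2 members were above 0, beside 50.7% of all genes, and 5 members had an unadjusted p under 0.05, beside 15.9% of all genes. The lowest adjusted p was that of Erg, at -0.98 (SE 0.28, adjusted p = 0.0366), where the estimates were -0.33 in the DA and 0.66 in the aorta. DESeq2 gave an adjusted p of 0.00759 for it and called it, the only 1 of 13 alternatives to do so. With a single library left out, 0 of 23 fits called it. Cldn5 had an interaction of 0.85 (adjusted p = 0.181), Emcn of -0.63 (0.329), Pecam1 of -0.46 (0.163) and Cdh5 of -0.46 (0.244), so the effects on these genes were not shown to differ between DA and aorta.

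The members were also set against each other within each library, as log2 of a member over the geometric mean of the other 9, a measure that a shared change of all endothelial genes leaves as it is. In the aorta, Emcn was 0.85 higher relative to the others in Prdm6-deficient samples (-0.73 ± 0.24, SD, n = 5) than in controls (-1.58 ± 0.31, n = 6), without overlap. Tek and Tie1 moved by 0.07 and 0.06 on this scale, and Pecam1 and Cdh5 by -0.03 and 0.02. Cldn5 in the DA was 0.99 higher relative to the others, from -0.58 ± 0.72 (n = 7) to 0.40 ± 0.15 (n = 5), with overlap. Erg was 0.65 lower relative to the others in Prdm6-deficient DA, and 0.72 higher in the DA than in the aorta of controls. These relative levels are a description and were not tested.

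The members varied together from library to library only in part. Over the 23 libraries, after removing each group's mean, Pecam1, Cdh5, Tek, Tie1 and Vwf were correlated at r of 0.66 to 0.85 in all 10 of their pairs, with a median of 0.795. Over all 45 pairs of members the median was 0.25 and the range -0.55 to 0.85. Esam correlated with Pecam1 at 0.55 and with Cdh5 at 0.57, and Emcn with Cdh5 at 0.58. Cldn5 and Kdr shared an r of 0.54 but lay at 0.30 or below with all the others. Erg had its highest r, 0.20, with Tie1 and its lowest, -0.55, with Cldn5. The points share their libraries and are shares of the same totals, and the correlations are given without a test.

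**Figure D3:**
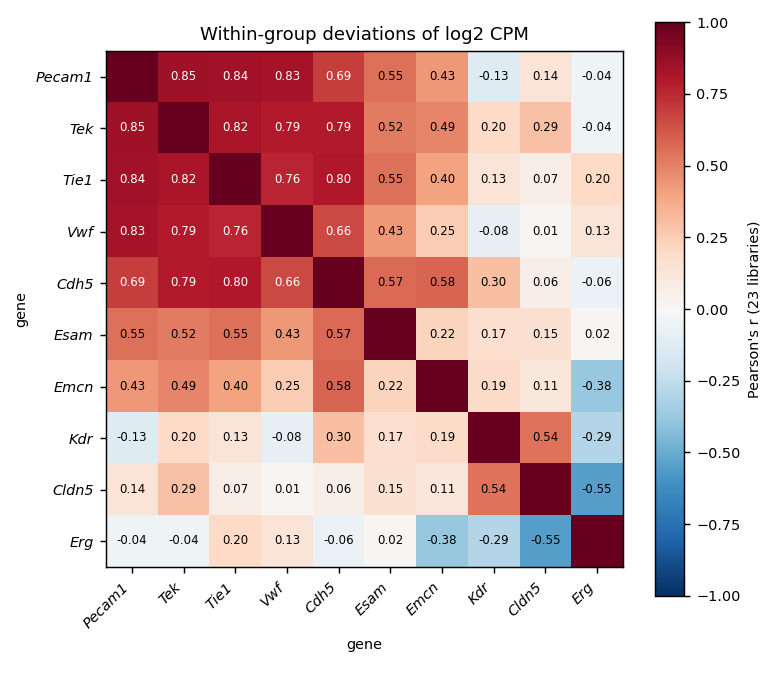
Pearson's r between each pair of the 10 genes, over the deviations of log2 CPM from the group mean in 23 libraries, on a colour scale from -1 to 1. Pecam1, Tek, Tie1, Vwf and Cdh5 form a block with r of 0.66 to 0.85, while Cldn5, Kdr and Erg lie outside it.

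The genes whose deviations were most like the mean deviation of the 10 members, among 12503 genes that averaged 1 or more in log2 CPM, were Mmrn2 (r = 0.81), Cd93 (0.77), Sparcl1 (0.75), Notch1 (0.75), Rasip1 (0.72), Podxl (0.72), Ehd4 (0.71), Nos3 (0.71), Mmp16 (0.70) and Itsn2 (0.70). Of these 10, Mmrn2, Cd93, Rasip1, Podxl and Nos3 were on the list of other pan-endothelial genes. Nos3, the endothelial nitric oxide synthase, had a log2 fold change of 0.68 in the aorta (adjusted p = 0.0105), and Notch1 one of 0.81 in the DA (adjusted p = 7.7e-04).

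Among the listed ligands and partner receptors, Angpt1, Angpt2 and Vegfd changed. Angpt1, the agonist ligand of Tek that mural cells secrete, measured 0.106 to 3.30 CPM in control DA with a median of 2.07 CPM, and 6.17, 12.7, 24.0, 20.2 and 13.2 CPM in Prdm6-deficient DA. In the aorta it measured 2.65 to 8.25 CPM in controls, with a median of 4.63 CPM, and 64.4, 58.3, 93.9, 69.4 and 62.1 CPM in Prdm6-deficient samples. The groups did not overlap in either vessel, and only control DA replicate 5 fell under the 3-count floor. The log2 fold changes were 3.01 in the DA (SE 0.38, adjusted p = 2.6e-06) and 3.86 in the aorta (SE 0.39, adjusted p = 1.9e-07), and their difference was not called (-0.85, 95% interval -1.95 to 0.25). Angpt1 was lower in the DA than in the aorta of Prdm6-deficient samples, with a log2 fold change of -2.19 (adjusted p = 0.00405). That call was kept in 16 of the 23 fits with a single library left out (-2.41 to -1.99). It was lost with the replicate number as a block, within each series, without the pooled samples and without the 2 libraries richest in haemoglobin, with adjusted p-values up to 0.163.

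Angpt2, the ligand of Tek that endothelial cells release, rose in both vessels as well. It measured 139 to 179 CPM in control DA and 410, 305, 432, 311 and 331 CPM in Prdm6-deficient DA, and 145 to 204 CPM in control aorta and 336, 314, 347, 289 and 359 CPM in Prdm6-deficient aorta. The log2 fold changes were 1.15 (SE 0.10, adjusted p = 2.9e-09) and 0.91 (SE 0.10, adjusted p = 5.9e-07), and their difference of 0.24 was not called (adjusted p = 0.441). Vegfd, a ligand in mouse of the lymphatic receptor Flt4 and not of Kdr, measured 4.75 to 13.5 CPM in control aorta and 30.6 to 38.8 CPM in Prdm6-deficient aorta (log2 fold change 1.86, adjusted p = 7.4e-08), and 29.2 to 45.1 CPM in control DA, above every control aorta value (1.98, adjusted p = 5.3e-09). Of the 12 ligands and partner receptors listed, 2 were called higher in the DA and 3 in the aorta, 0 lower in either, beside 2.61% and 1.63% of all genes called higher. Ptprb, the phosphatase that acts on Tek, stood at -0.13 in the DA and 0.38 in the aorta, and Flt1, the decoy receptor for VEGF, at 0.07 and -0.22, none of them called.

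**Figure D4:**
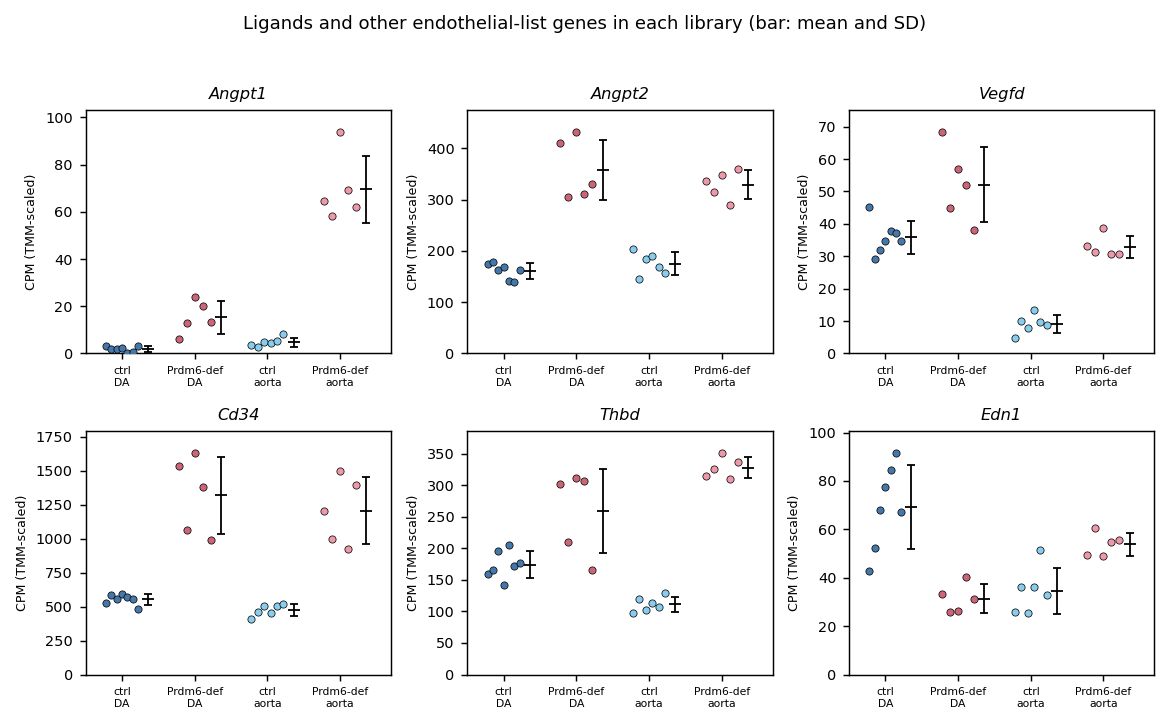
Level in CPM (TMM-scaled, linear axes from 0) of the ligands Angpt1, Angpt2 and Vegfd and of Cd34, Thbd and Edn1, with 1 point per library in the 4 groups and a bar for mean and SD. Angpt1 is highest in Prdm6-deficient aorta, at 58.3 to 93.9 CPM, and Edn1 lies lower in Prdm6-deficient than in control DA but not in the aorta.

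The 7 other endothelial lists hold 83 genes, among them the 12 ligands and partner receptors above. Of the 83, 8 were called higher and 1 lower in the DA without Prdm6 (median 0.30 on the log2 scale). Over all genes 2.61% were called higher and 2.82% lower, with a median of 0.01. In the aorta 17 of the 83 were called higher and 0 lower (median 0.35), beside 1.63% and 0.826% of all genes and a median of 0.00. Angpt1 and Angpt2 are among the genes called higher in each vessel, and Vegfd among those in the aorta. Of 20 other pan-endothelial genes, Cd34 and Clec14a were called higher in the DA and Cd34, Clec14a, Eng, Myct1 and Tspan18 in the aorta. Cd34, a sialomucin that fibroblasts and progenitors also carry, measured 485 to 595 CPM in control DA and 989 to 1631 CPM in Prdm6-deficient DA (log2 fold change 1.26, adjusted p = 1.7e-08), and in the aorta the value was 1.35. Clec14a, a surface lectin of endothelium, stood at 0.62 in the DA and 0.89 in the aorta. Tspan18, a tetraspanin, stood at 1.06 in the aorta and -0.20 in the DA, and Myct1 at 0.91 and 0.11.

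Of 14 endothelial transcription factors, Ets1, an ETS factor, rose in both vessels. It measured 30.6 to 56.4 CPM in control DA and 89.4 to 157 CPM in Prdm6-deficient DA (log2 fold change 1.40, adjusted p = 1.1e-07), and 40.9 to 57.7 CPM in control aorta and 106 to 157 CPM in Prdm6-deficient aorta (1.27, adjusted p = 1.8e-06). Ets1 is also expressed in the neural crest and its derivatives. Fli1, the ETS factor nearest to Erg, stood at 0.65 in the DA (adjusted p = 0.0335) and 0.42 in the aorta (adjusted p = 0.385). Sox17, an arterial Sox factor, was called in the aorta at 0.86 (adjusted p = 0.00664), a call kept in 13 of 23 fits with a single library left out and lost within each series, with the series as a covariate, without the control samples with Cre and without the 2 libraries richest in haemoglobin.

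Of 10 arterial genes, Gja4, the connexin 37 of arterial endothelium that mural cells can also express, was called in the DA (log2 fold change 1.29, adjusted p = 4.2e-06) and the aorta (0.93, adjusted p = 0.00118). Hey2, a Notch target of arterial endothelium and smooth muscle, was called in the DA at 0.55 (kept in 19 of 23 fits with a library left out, and lost within each series), and the netrin receptor Unc5b in the aorta at 1.09. Of 8 venous and lymphatic genes 0 were called in the DA, with 3 at an unadjusted p under 0.05, beside 23.7% of all genes, where the most abundant were Ephb4 (0.02) and Lyve1 (0.64). Nr2f2 was called in the aorta at 0.51, just past the limit, and kept its call in 14 of 23 fits with a library left out and in 7 of the 14 other alternatives. Of 9 capillary genes 0 were called in the DA, with 5 at an unadjusted p under 0.05, beside 23.7% of all genes. By sign 6 of the 9 were lower (median -0.78). Some of the 9 lay near the floor. Car4 averaged 0.558 CPM in control DA and 0 in Prdm6-deficient DA, and Esm1 averaged 0.369 and 1.54 CPM. The most abundant capillary genes were Plvap (0.37) and Cd36 (-0.78). Plvap was called in the aorta at 0.80, and kept its call in 18 of 23 fits with a library left out.

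Of 10 genes of activation and coagulation, Thbd was called higher and Edn1 lower in the DA, and Thbd, Procr and Icam1 higher in the aorta. Thbd, the anticoagulant thrombomodulin, measured 142 to 205 CPM in control DA and 301, 210, 311, 306 and 166 CPM in Prdm6-deficient DA (log2 fold change 0.57, adjusted p = 0.00136). The 3 high values, in replicates 1, 5 and 6, are those of the first series, and within the second series the log2 fold change was 0.14 (adjusted p = 0.630). The DA call was also lost with the series as a covariate, with only the compared groups in the fit, without Prdm6-deficient DA replicate 5 and without the 2 libraries richest in haemoglobin. In the aorta Thbd measured 97.6 to 129 CPM in controls and 310 to 351 CPM in Prdm6-deficient samples (1.56, adjusted p = 3.3e-09). Edn1, the vasoconstrictor endothelin 1, measured 42.8 to 91.6 CPM in control DA and 25.8 to 40.2 CPM in Prdm6-deficient DA (-1.14, adjusted p = 3.7e-05), and 25.4 to 51.5 CPM in control aorta and 48.9 to 60.6 CPM in Prdm6-deficient aorta (0.64, adjusted p = 0.0286). The difference of these effects passed the test for Edn1 at -1.78 (adjusted p = 3.4e-05) and for Thbd at -0.98 (adjusted p = 5.5e-04). Procr, the protein C receptor, stood at 0.76 in the aorta and Icam1, a leukocyte adhesion molecule, at 0.75. The Icam1 call was kept in 8 of 23 fits with a single library left out and lost with the series as a covariate, with the replicate number as a block and without the control samples with Cre.

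Between the control vessels 6 of the 83 genes were called higher in the DA and 1 lower, beside 3.16% and 2.19% of all genes. The flow-responsive factor Klf2 stood at 0.53, Edn1 at 1.0, Thbd at 0.64, Unc5b at 0.82 and Tspan18 at 0.95, beside Vegfd above, while Hey2 was called lower at -0.86. These values share the control DA samples with the comparison of Prdm6-deficient and control DA and the control aorta samples with that in the aorta. The Klf2 call was kept in 21 of 23 fits with a single library left out. It was lost within each series, without the control samples with Cre, and with the animal as a block in the 6 control animals.

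Other cell types of the dissected pieces varied too. Fibroblast markers summed to 5224 to 10615 CPM in control DA and 9368 to 11449 CPM in Prdm6-deficient DA, and to 7796 to 10464 CPM and 6989 to 8721 CPM in the aorta groups, with Col3a1 the most abundant. The 8 markers did not move alike. Of Lum, Col3a1 and Mfap5, called in the DA, 2 were higher and 1 lower. In the aorta 5 of the 8 were lower by sign, yet the only one called, Lum, was higher. Mesothelial markers, led by Upk3b, ranged from 19.4 to 404 CPM in control DA and from 9.76 to 230 CPM in Prdm6-deficient DA, and cardiomyocyte markers, led by Tnnt2, from 29.1 to 1325 CPM and from 77.6 to 483 CPM. Brown adipocyte markers summed to 1.81 to 51.8 CPM in control DA and 3.07 to 7.17 CPM in Prdm6-deficient DA. Of these, Adipoq (0 to 29.1 CPM in control DA, 0 in every Prdm6-deficient DA library; adjusted p = 0.00685) and Plin1 (0 to 17.8 CPM, against at most 0.0491 CPM; adjusted p = 0.00852) were called lower, and Cidea had the highest average over all libraries. Epithelial markers reached at most 2.56 CPM in any library. The part of these cells in the member values was not tested.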

How the data were processed

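The deposited table, from 24 labelled samples of which 23 have a column, holds expected counts per gene. According to the study's methods, the authors filtered the paired reads by quality with the FASTX-Toolkit, removed adapters with tagdust, aligned to mm10 with STAR and estimated expected counts with RSEM and a GENCODE annotation they name by version, giving counts that are not scaled for depth or length (the versions of the 4 tools are not given in the sources used here). RSEM shares out reads that fit several genes, and 7.71% of values are not whole. Here the counts were rounded, 54723 identifiers matched GENCODE M21 and 16463 genes passed filterByExpr.

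Fits used edgeR 4.0.16 in R 4.3.3 with TMM scaling, the quasi-likelihood test, 1 mean per group and Benjamini-Hochberg adjustment over all tested genes. DESeq2 1.42.0 and limma 3.58.1 served as alternatives, and the procedure was tested on simulated data. CPM values are TMM-scaled, values after ± are SDs, and 95% intervals come from the fit. Samples were grouped by their labels. P-values measure the spread between these samples, and counting limits of 3 counts cover counting error only. The members and lists were chosen with earlier results of these data known. The named genes are all members, up to 4 called genes each way per list with the largest change (with none called, the 2 most abundant) and the 10 genes most like the members. Eng was named beyond this rule because it completes a count of 5, and Fli1, Ptprb, Flt1 and values of genes not called in a given vessel are given for their role, after their values were seen. Replicate numbers do not pair the samples. Promoters come from RefSeq on GRCm38.p6, where 6 of the 10 members matched.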

Additional observations from a re-analysis of the deposited data

Results flagged for a closer look

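Of 120 groups of values over 30 genes, 3 held a library far from the others of its group, where chance gives about 1 in 20. Pecam1 stood at 425 CPM in Prdm6-deficient DA replicate 6, against 286 to 325 CPM in the other 4. The same library also had the highest Tek, Tie1, Vwf and Cldn5 levels of its group. Erg stood at 117 CPM in control DA replicate 3, the PRDM6wt/wt sample, which was also the lowest of its group for Cldn5 at 23.6 CPM. Myct1 stood at 31.0 CPM in Prdm6-deficient DA replicate 7, against 21.7 to 22.7 CPM in the other 4, and this library also had the highest Emcn level, 91.1 CPM.

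For 6 genes of the endothelial lists the effect of Prdm6 loss differed between the vessels by the test of the interaction (edgeR, adjusted p below 0.01), given as the log2 fold change in the DA minus that in the aorta. The difference was -1.25 for Tspan18, -1.32 for Vegfd, -0.86 for Unc5b, -0.98 for Thbd, -1.78 for Edn1 and -1.30 for Icam1. All 6 were lower by sign, beside 1.66% of all genes called lower and 0.917% called higher in this test. Edn1 and Icam1 had estimates of opposite sign in the vessels, Icam1 with 14.2 to 28.2 CPM in Prdm6-deficient and 19.9 to 39.4 CPM in control DA, and with 26.2 to 40.4 CPM and 15.7 to 28.5 CPM in the aorta.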

How the results depend on the processing

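The number of members called higher in the DA was 1 and became 0 with only the compared groups in the fit, within the first series, within the second series and without the pooled samples, and 2 without the control samples with Cre, with 0 to 2 when single libraries were left out. In the aorta the number was 3 and became 0 within the first series, 1 within the second and 1 without the 2 libraries with the most haemoglobin (an alternative chosen after seeing the data), 2 without the control samples with Cre (Tie1 lost), 4 with DESeq2 (Cdh5 added) and 4 with only the compared groups (Erg added), with 1 to 4 when single libraries were left out. Between control vessels 1 member was called, 0 within the first series and 0 to 1 with single libraries left out. In the interaction 0 members were called lower by edgeR and 1, Erg, by DESeq2. The first series holds 2 to 3 libraries in each group but 1 control aorta, so few samples remain there; the cause of the other changes was not tested. No member's called value changed sign. Of all member log2 fold changes under the alternatives, 1740 kept their sign and their call, and 69 changed sign without a call in either fit. Another 32 lost their call and 9 gained one. The replicate numbers do not pair the samples (correlations of deviations from -0.054 to 0.133), and with the replicate number as a block 4 members were called higher in the aorta, Pecam1 being added, 1 in the DA and 1 between control vessels. Among the 83 other genes, those called higher in the aorta numbered 13 to 19 with single libraries left out and 1 to 21 otherwise, against 17, the 1 being within the first series. All 40 group means without TMM moved by less than 1 SD. At this depth 3 counts stand for 0.133 to 0.198 CPM, a level that Angpt1 fell under in control DA replicate 5.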
